A study of Mus musculus with 2 samples.

Results

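Osteoclasts form when mononuclear precursors merge into cells with many nuclei, and 8 genes for membrane proteins tied to that step were examined here. They were picked by name, with earlier results of these data known. Dcstamp is listed on the array as TM7SF4, Ocstamp as 4833422F24RIK and Sirpa as PTPNS1, and Mst1r, Cd200, Cd200r1, Cd47 and Cd44 under their own names. All 8 were found among 31492 array genes, and Cd47 had further entries under older names, described beside it.

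The tested cultures received M-CSF and RANKL, both at 30 ng/ml, and the control cultures M-CSF alone at 30 ng/ml. Both ran for 3 days in MEM-alpha with 10% fetal bovine serum, and RNA came from the adherent cells. All cells were C57BL/6 bone marrow cells of mice aged 8 weeks, sorted as CD3-, CD45R-, CD11b lo/- and CD115+, so the sort removed T and B cells and kept cells with the M-CSF receptor. RANKL is the cytokine that starts osteoclast formation, and M-CSF supports monocytes and macrophages. Each culture condition is represented by 3 biological replicates on separate Illumina arrays, and the deposited values are their mean and SD. Values of single arrays are not analysed here, and the sources used here do not say what made the replicates separate, so p-values measure only the spread between them. The number of arrays limits the precision.

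DC-STAMP and OC-STAMP, the products of Dcstamp and Ocstamp, are proteins that cross the membrane several times. Mice that lack either one form osteoclasts with a single nucleus. The other members work as surface receptors or their ligands. Mst1r (RON) is a receptor tyrosine kinase for macrophage-stimulating protein. CD200 signals through its receptor CD200R1, which restrains myeloid cells. CD47 binds SIRPα, which blocks engulfment, and both have been tied to macrophage fusion. CD44 binds hyaluronan and osteopontin and has also been linked to fusion of macrophages.

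With RANKL, 5 of the 7 tested members rose, 1 fell and 1 did not pass (adjusted p under 0.05, limma moderated test). Dcstamp, Ocstamp, Mst1r and Cd200 rose at least 10-fold, Cd44 rose 1.33-fold, Sirpa fell 2.06-fold and Cd47 did not pass. Cd200r1 was not tested, because it was detected in neither culture at a detection p under 0.01. Of 11012 tested genes, 57.8% passed, 28.9% higher and 29.0% lower. The filter on detection kept genes that were high in only 1 culture, as Ocstamp, Mst1r and Cd200 were, so for these a rise was nearly fixed.

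Signals are linear intensities on which background is not 0. Genes not detected read a median of 145 in either culture, and in most array genes the detection p moves in steps with the signal. The lowest detected signal among those genes, called the floor here, was 196 with RANKL and 198 with M-CSF alone. Among all array genes some were listed as detected below it, down to 160 with RANKL and 164 with M-CSF alone. Where a culture read below its floor and was not detected, the brighter mean was divided by that floor, which gives a lower bound, written as "at least". With undetected signals set to the floor in this way, a rise of 10-fold or more was called in 4 of the 7 tested members and in 0.472% of tested genes. On the same scale the median log2 fold was 3.70 over the 7 tested members, where it is itself a lower bound, and 0.00 (-0.00245) over all tested genes. Ocstamp, Mst1r and Cd200 were tested only because they were detected with RANKL, so for them a rise was nearly fixed by the filter. This limits the count of 4, the adjusted p-values of these genes and the median, which is the bound of Cd200. Since 3 values cannot lie more than 1.41 SD from their own mean, the deposited means and SDs also show where the replicates of the 2 cultures cannot overlap. They could not overlap in 6 of the 7 tested members, and in 50.8% of all tested genes. RNA of a whole culture was measured, so a change in the number of expressing cells and a change in RNA per cell cannot be told apart.

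**Figure D1:**
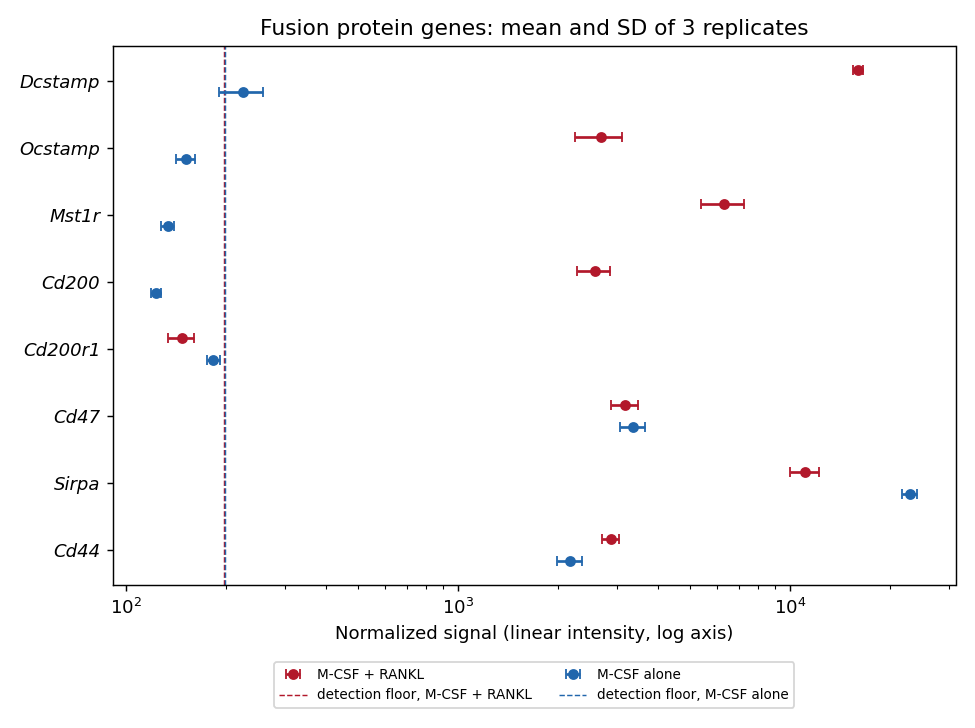
Mean normalized signal (linear intensity on a log axis) of the 8 genes, with bars for the SD over 3 replicates, in M-CSF + RANKL (upper point of each pair) and M-CSF alone (lower point). Dashed lines mark the detection floors of 196 and 198. Ocstamp, Mst1r and Cd200 lie below the floor with M-CSF alone and between 2574 and 6317 with RANKL, and Cd200r1 lies below it in both cultures.

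Dcstamp, which is needed for osteoclast precursors to fuse, rose and was detected in both cultures. Its signal averaged 16037 ± 553 with RANKL and 224 ± 34.1 with M-CSF alone (SD, n = 3 each). The replicates with RANKL must lie between 15256 and 16819, and those with M-CSF alone below 273. The cultures therefore do not overlap. The rise was 71.5-fold (log2 6.16 ± 0.12 SE, 95% interval 5.90 to 6.42, adjusted p = 4.10e-12 in limma). Subtraction of the background signal gave a log2 fold of 7.65, since the signal with M-CSF alone stands little above background. The SD was 3.45% of the mean with RANKL and 15.2% with M-CSF alone, against medians over all array genes of 6.78% and 6.89%.

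Ocstamp, the partner of Dcstamp in fusion, averaged 2685 ± 434 with RANKL and 151 ± 9.81 with M-CSF alone. Its detection p with M-CSF alone was 0.304, so it was not detected there. The replicates lie above 2071 with RANKL and below 165 with M-CSF alone, so they do not overlap. The rise was at least 13.6-fold, and the limma test, which used the measured means, gave an adjusted p of 1.37e-10. The replicates with RANKL varied more for Ocstamp than for Dcstamp, with an SD of 16.2% of the mean.

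The genes nearest to these 2 in the log2 means of both cultures were found among all tested genes, a description over 2 conditions only that sets signals of different probes side by side. Nearest to Dcstamp were an array gene without a current symbol (4833431P12RIK, distance 0.29), Scin, which encodes an actin-severing protein (0.42), and Mt3, a metallothionein (0.80). Scin averaged 21484 ± 3139 with RANKL and 232 ± 22.7 with M-CSF alone. Mt3 averaged 19195 ± 3267 with RANKL and was not detected with M-CSF alone, at 133 ± 11.6. Nearest to Ocstamp were Serpind1, which encodes heparin cofactor II, the solute carrier Slc45a3 and the lectin-like receptor Klra17. Their signals with RANKL were 2505 ± 470, 2726 ± 279 and 2658 ± 667, and none of the 3 was detected with M-CSF alone. Ocstamp was not detected there either, so this likeness rests on the signals with RANKL. All 6 genes were picked for signals close to those of Dcstamp or Ocstamp in both cultures, so their rises follow from that choice.

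Mst1r, the receptor tyrosine kinase, averaged 6317 ± 955 with RANKL and 133 ± 5.90 with M-CSF alone. Its detection p with M-CSF alone was 0.910, so it was not detected there. The replicates, above 4966 with RANKL and below 142 with M-CSF alone, do not overlap. The rise was at least 32.0-fold, and the limma test of the measured means gave an adjusted p of 1.52e-11. Its ligand, encoded by Mst1, was not detected in either culture, at 190 ± 12.3 with RANKL and 166 ± 18.3 with M-CSF alone. The promoter of Mst1r is shown here because it and that of Cd200 are those of the strongly raised members with an entry in the RefSeq table used. The window covers 250 bases before and 50 after an annotated start site (RefSeq, GRCm38.p6, chr9:107906639-107906938, plus strand), and capitals mark GGAAA, the core letters read by NFAT factors.
Mst1r promoter: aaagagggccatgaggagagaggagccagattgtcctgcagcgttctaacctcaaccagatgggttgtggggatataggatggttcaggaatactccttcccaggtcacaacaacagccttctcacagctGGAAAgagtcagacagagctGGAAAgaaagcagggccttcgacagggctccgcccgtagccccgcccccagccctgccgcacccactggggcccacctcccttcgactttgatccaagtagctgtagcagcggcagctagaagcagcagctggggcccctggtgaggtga
GGAAA starts at positions -120 and -100 from the start site. It was found in 61.3% of the 32851 windows of this length in the table, on either strand, so its presence is common. TGANTCA (the AP-1 letters, in 7.81% of windows), GAGGAA (the PU.1 letters, in 28.3%) and CACGTG (an E-box read by MITF, in 7.15%) were not in this window. GAGGAA and GGAAA can overlap by several letters. A second annotated start site of Mst1r held none of the 4 motifs in its window.

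**Figure D2:**
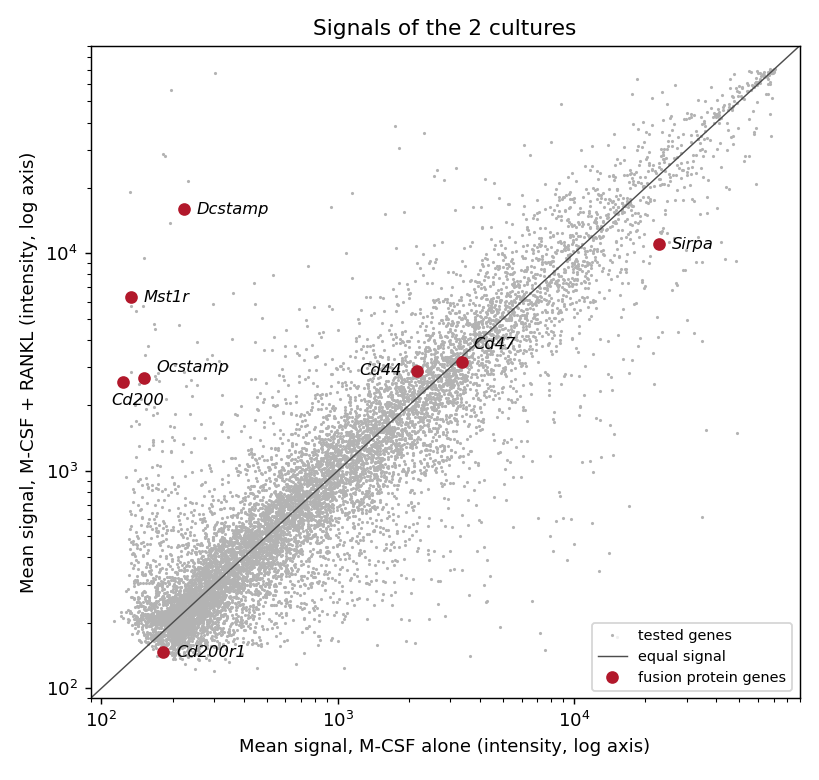
Mean signal with M-CSF + RANKL (vertical, intensity, log axis) against M-CSF alone (horizontal, same scale) for 11012 tested genes in grey and the 8 fusion protein genes in red. Dcstamp, Mst1r, Ocstamp and Cd200 stand at the upper left, far above the line of equal signal, Cd47 and Cd44 lie near it and Sirpa below it.

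Cd200 rose, and its receptor gene was not detected in either culture. Cd200, the ligand, averaged 2574 ± 292 with RANKL and 123 ± 4.21 with M-CSF alone. Its detection p with M-CSF alone was 0.990, so it was not detected there. Its replicates, above 2161 with RANKL and below 129 with M-CSF alone, do not overlap. The rise was at least 13.0-fold, and the limma test of the measured means gave an adjusted p of 3.54e-11. Cd200r1, the receptor, read 147 ± 13.2 with RANKL and 183 ± 8.01 with M-CSF alone, below the floor in both, so no fold is given. Its detection p, 0.388 with RANKL and 0.142 with M-CSF alone, is not among those that move in steps with the signal. Some genes were listed as detected with M-CSF alone down to 164, below the signal of Cd200r1 there. The replicates of Cd200r1 with RANKL lie below 166 and those with M-CSF alone above 171. The related receptor genes Cd200r2, Cd200r3 and Cd200r4 were not detected in either culture. The promoter window of Cd200 (RefSeq, GRCm38.p6, chr16:45409004-45409303, minus strand) has capitals at TTCCTC, which is GAGGAA on the other strand.
Cd200 promoter: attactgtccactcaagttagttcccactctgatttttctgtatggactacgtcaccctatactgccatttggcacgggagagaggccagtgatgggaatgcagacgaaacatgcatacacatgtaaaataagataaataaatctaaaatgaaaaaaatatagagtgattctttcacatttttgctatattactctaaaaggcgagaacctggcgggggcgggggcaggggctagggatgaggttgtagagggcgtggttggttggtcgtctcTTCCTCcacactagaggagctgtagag
That match starts at position 24 after the start site. The window held no match to the other 3 motifs, and a match describes letters, not a bound site. The windows of Cd47 held none of the 4 motifs, and that of Cd44 held GGAAA 2 times and GAGGAA 2 times. Promoter entries for Dcstamp, Ocstamp, Cd200r1 and Sirpa were not used here.

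Among genes that carry the CD200R signal, the adaptor Dok2 fell 3.51-fold, with 3434 ± 116 with RANKL and 12068 ± 299 with M-CSF alone (log2 -1.81 ± 0.08 SE). Rasa1, the Ras GTPase-activating protein that binds DOK adaptors, averaged 3660 ± 203 with RANKL and 5514 ± 1245 with M-CSF alone. It fell by 0.59 on the log2 scale (adjusted p = 0.00329, limma). The means and SDs leave it possible that its replicates overlap, and the call was lost with both SDs doubled (adjusted p = 0.147, limma). Dok1 was not tested, since its detection p was 0.0355 with RANKL and 0.0413 with M-CSF alone, at signals of 742 ± 132 with RANKL and 481 ± 79.8 with M-CSF alone.

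Sirpa fell while its ligand gene Cd47 did not pass. Sirpa averaged 11090 ± 1145 with RANKL and 22897 ± 1209 with M-CSF alone, with replicates at no more than 12709 with RANKL and no less than 21187 with M-CSF alone. It was detected in both cultures and stayed bright with RANKL. The fall was 2.06-fold (log2 -1.05 ± 0.09 SE, 95% interval -1.23 to -0.86, adjusted p = 7.03e-07 in limma). Falls of 2-fold or more were called in 7.01% of tested genes, and rises of that size in 6.90%. Cd47 averaged 3176 ± 289 with RANKL and 3360 ± 295 with M-CSF alone, with ranges that overlap. Its log2 fold was -0.08 ± 0.10 SE (adjusted p = 0.526, limma), and the 95% interval of -0.31 to 0.15 leaves room for a small change either way. The array holds 3 further entries whose older names belong to Cd47, and they did not move together. The brightest averaged 5071 ± 575 with RANKL and 6685 ± 2090 with M-CSF alone and did not pass (log2 -0.40 ± 0.18 SE, adjusted p = 0.0785 in limma). Another averaged 520 ± 48.4 with RANKL and 373 ± 42.6 with M-CSF alone and rose (log2 0.48 ± 0.11 SE, adjusted p = 0.00329, or 0.147 with both SDs doubled, in limma). The last was not detected in either culture, at 174 ± 3.00 with RANKL and 191 ± 25.9 with M-CSF alone. Which Cd47 transcripts each entry reads is not known from the files.

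Tested genes for proteins that work with SIRPα fell or did not pass, and Sirpb1a, which encodes a relative of it, fell. Fyb, an adaptor of immune receptors found with SKAP2, fell 5.55-fold, at 696 ± 120 with RANKL and 3860 ± 709 with M-CSF alone (log2 -2.47 ± 0.15 SE). Skap2, an adaptor that binds SIRPα, read 13868 ± 750 with RANKL and 15093 ± 1307 with M-CSF alone and did not pass (adjusted p = 0.224, limma). Ptpn6, the phosphatase SHP-1 that docks on SIRPα, averaged 6117 ± 461 with RANKL and 7604 ± 340 with M-CSF alone, a log2 fold of -0.31 ± 0.09 SE (adjusted p = 0.00831, or 0.215 with both SDs doubled, limma). Ptpn11, which encodes the related SHP-2, was not tested because its detection p was 0.0182 with RANKL and 0.0198 with M-CSF alone, at signals of 2409 ± 110 with RANKL and 3138 ± 162 with M-CSF alone. Sirpb1a, listed on the array as SIRPB1, encodes an activating relative that signals through Tyrobp. It fell 3.99-fold, with 1224 ± 176 with RANKL and 4883 ± 804 with M-CSF alone. A second array gene of that symbol was not detected, at 198 with RANKL and 326 with M-CSF alone. Whether the Sirpa and Sirpb1a probes also bind transcripts of close relatives was not examined.

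Cd44 changed least among the members that passed. It averaged 2877 ± 165 with RANKL and 2170 ± 193 with M-CSF alone, with replicates no lower than 2644 with RANKL and no higher than 2443 with M-CSF alone, so they do not overlap. The rise was 1.33-fold (log2 0.41 ± 0.10 SE, 95% interval 0.19 to 0.63, adjusted p = 0.00434 in limma). With both SDs doubled the call was lost (adjusted p = 0.165, limma). The size of the change stood at percentile 57.9 of tested genes.

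Around CD44, the protease gene Mmp14 and the hyaluronidase genes rose, and the sheddase gene Adam10 fell. Mmp14, a membrane-bound metalloproteinase that can cleave CD44, averaged 5839 ± 1083 with RANKL and 297 ± 26.0 with M-CSF alone (log2 4.30 ± 0.14 SE, adjusted p = 2.05e-10 in limma). Its detection p was 0.0161 with RANKL and 0.00994 with M-CSF alone and so did not follow the signal. Hyal1, a hyaluronidase, averaged 1638 ± 229 with RANKL and 320 ± 47.8 with M-CSF alone (log2 2.35 ± 0.13 SE), although its detection p with M-CSF alone was 0.0113 and so over the limit. Hyal2, another hyaluronidase, averaged 8993 ± 702 with RANKL and 2424 ± 351 with M-CSF alone (log2 1.89 ± 0.11 SE). The hyaluronan synthase genes Has1, Has2 and Has3 were detected in neither culture. Spp1, which encodes osteopontin, averaged 31777 ± 3295 with RANKL and 47033 ± 4252 with M-CSF alone and fell by 0.57 on the log2 scale (adjusted p = 0.000133, limma). Among the proteins that link CD44 to actin, Ezr and Msn fell by 0.93 and 0.46 on the log2 scale, and Rdx did not pass, at 213 ± 31.5 with RANKL and 202 ± 37.9 with M-CSF alone. Adam10 averaged 206 ± 20.2 with RANKL, close to the floor of 196, and 336 ± 25.8 with M-CSF alone. Its log2 fold was -0.70 ± 0.10 SE, and -1.64 after subtraction of background, so its size depends on the background. Over the whole list of partners of the surface receptors, 26 of 28 genes had an array gene and 15 were tested, with 10 falls, 3 rises and 2 that missed the threshold. Of all tested genes, 29.0% fell and 28.9% rose. Its median log2 fold was -0.57, beside 0.00 (-0.00249) over all tested genes. Those tested were kept by the detection filter and do not stand for the whole list.

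**Figure D3:**
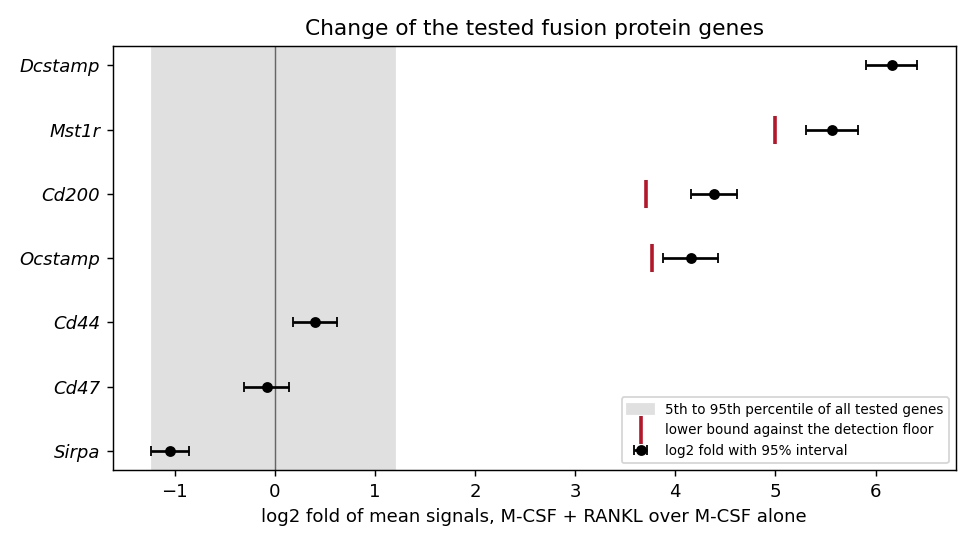
Log2 fold of mean signal (M-CSF + RANKL over M-CSF alone) of the 7 tested genes with its 95% interval, sorted by size. Red ticks give the lower bound for genes not detected with M-CSF alone, and the grey band spans the 5th to 95th percentile of all tested genes, -1.22 to 1.21. Dcstamp, Mst1r, Cd200 and Ocstamp lie outside the band, and the interval of Cd47 spans 0.

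Of 11 regulators known to act on Dcstamp or Ocstamp, 10 were tested, 7 rose, 2 fell and 1 did not pass, where 28.9% of all tested genes rose and 29.0% fell. The median log2 fold of those tested was 0.66, or 0.64 with Prdm1 at its lower bound. Prdm1 was tested only because it was detected with RANKL, so for it a rise was nearly fixed by the filter. The call of a rise was lost for Tnfrsf11a with both SDs doubled and with unpooled variances, and for Mitf with unpooled variances. Nfatc1, the transcription factor that binds the Dcstamp promoter, rose 5.05-fold, with 2936 ± 195 with RANKL and 581 ± 48.0 with M-CSF alone. Fos, a subunit of AP-1, averaged 11406 ± 1148 with RANKL and 4854 ± 231 with M-CSF alone, a log2 fold of 1.23 ± 0.09 SE. Spi1, which encodes PU.1, averaged 2846 ± 84.5 with RANKL and 1789 ± 73.9 with M-CSF alone (log2 0.67 ± 0.09 SE).

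Bcl6 and Tal1 were the genes of that list that fell. Bcl6, a repressor of Dcstamp and Nfatc1, fell 2.95-fold, with 1232 ± 200 with RANKL and 3634 ± 160 with M-CSF alone (log2 -1.56 ± 0.12 SE, adjusted p = 4.07e-07 in limma). Prdm1 (Blimp1), which represses Bcl6, rose at least 1.20-fold, to 237 ± 19.2 with RANKL, and was not detected with M-CSF alone. Tal1, which restrains Dcstamp expression, averaged 263 ± 20.7 with RANKL and 484 ± 39.7 with M-CSF alone (log2 -0.88 ± 0.10 SE). Sbno2, reported to counter Tal1 at Dcstamp, read 558 ± 58.0 with RANKL and 525 ± 86.1 with M-CSF alone and did not pass (adjusted p = 0.588, limma).

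Other membrane proteins linked to fusion were split. All 21 had an array gene and 16 were tested, with 8 falls, 6 rises and 2 that missed the threshold, beside 57.8% of all tested genes that passed, 29.0% lower and 28.9% higher. The median log2 fold of those tested was -0.20. Atp6v0d2, Adam12 and Cd36 were not tested, because none was detected in either culture. Atp6v0d2 read 163 ± 12.1 with RANKL and 124 ± 4.43 with M-CSF alone, below the floor in both, so no fold is given. Mfge8, a bridging protein between cells, averaged 7978 ± 745 with RANKL and 2291 ± 300 with M-CSF alone (log2 1.80 ± 0.11 SE). Itgav, the alpha chain that pairs with beta3 integrin, averaged 1654 ± 199 with RANKL and 532 ± 65.9 with M-CSF alone (log2 1.64 ± 0.12 SE). Slc1a5, a neutral amino acid transporter that serves as the receptor of syncytin-1 in human cells, averaged 715 ± 81.2 with RANKL and 252 ± 13.3 with M-CSF alone (log2 1.51 ± 0.11 SE). The mouse syncytin genes Syna and Synb were detected in neither culture. Sh3pxd2a, which encodes the podosome scaffold Tks5, averaged 1003 ± 115 with RANKL and 379 ± 67.8 with M-CSF alone (log2 1.41 ± 0.14 SE), and 2 further array genes of it were not detected.

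The 4 largest changes on that list were falls, those of Ccl2, Cd81, Trem2 and Adam8. The chemokine gene Ccl2 averaged 501 ± 45.5 with RANKL and 7885 ± 882 with M-CSF alone (log2 -3.98 ± 0.11 SE), and its receptor gene Ccr2 averaged 292 ± 54.8 with RANKL and 600 ± 117 with M-CSF alone (log2 -1.04 ± 0.16 SE). A second array gene of Ccr2 was detected in neither culture. Of the tetraspanins, Cd81 averaged 4373 ± 460 with RANKL and 27508 ± 4292 with M-CSF alone (log2 -2.65 ± 0.12 SE). Cd63, a tetraspanin of late endosomes and lysosomes, rose 1.69-fold, with 14918 ± 1090 with RANKL and 8806 ± 146 with M-CSF alone (log2 0.76 ± 0.08 SE, adjusted p = 4.93e-06 in limma). Cd9, another tetraspanin, did not pass, at 11302 ± 1368 with RANKL and 9904 ± 166 with M-CSF alone (adjusted p = 0.0958, limma). Trem2, the receptor that signals through Tyrobp, fell by 2.64 on the log2 scale, and the metalloproteinase gene Adam8 fell by 2.59. Tyrobp had a log2 fold of -0.41 (adjusted p = 0.00205, or 0.119 with both SDs doubled, limma). Cdh1, which encodes E-cadherin, read 190 ± 5.58 with RANKL and 188 ± 9.71 with M-CSF alone and did not pass (adjusted p = 0.899, limma). Both signals lie below the floors, though its detection p was 0.00121 with RANKL and 0.00116 with M-CSF alone.

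**Figure D4:**
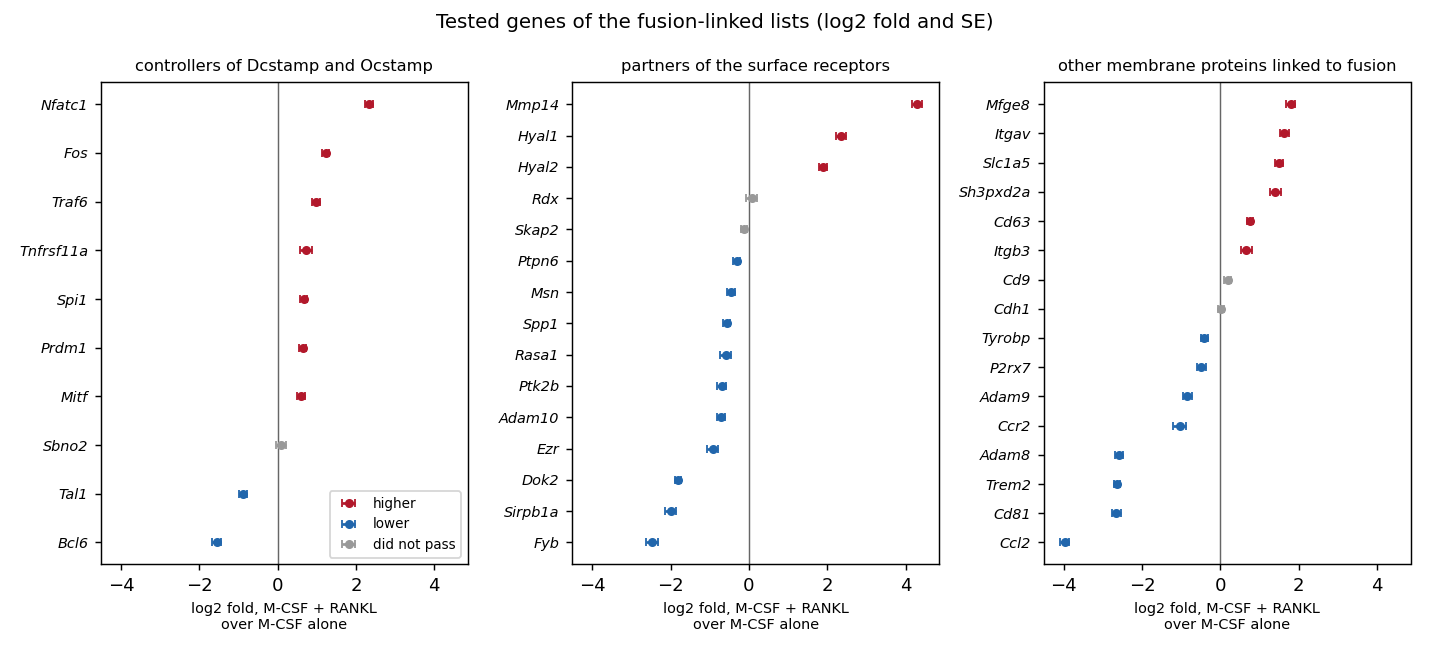
Log2 fold with SE (M-CSF + RANKL over M-CSF alone) of the tested genes of the 3 fusion-linked lists, red for higher, blue for lower and grey for those that did not pass. Regulators of Dcstamp and Ocstamp lie mostly to the right of 0, partners of the surface receptors mostly to the left, and the other membrane proteins on both sides.

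Marker genes bear on which cells were read. Of 7 osteoclast markers, a list that includes Dcstamp and Ocstamp, 6 were detected with RANKL and 3 with M-CSF alone. All 6 tested rose, where 28.9% of all tested genes rose. Acp5, Oscar and Ocstamp were tested only because they were detected with RANKL, so for them a rise was nearly fixed by the filter. Of 7 macrophage markers, 5 were detected with RANKL and 7 with M-CSF alone, and 6 fell, where 29.0% of all tested genes fell. The summed signals of the 7 were 50828 with RANKL and 79778 with M-CSF alone. Cd68 was the largest part of both sums, at 33656 with RANKL and 35480 with M-CSF alone, and did not pass (adjusted p = 0.421, limma). The falls ranged from 1.44-fold for Csf1r to at least 24.7-fold for C1qa, with 6.11-fold for Adgre1. C1qa and Mertk were tested only because they were detected with M-CSF alone, so for them a fall was nearly fixed by the filter. Among the macrophage markers, Csf1r, which encodes CD115, averaged 12688 ± 1294 with RANKL and 18261 ± 1386 with M-CSF alone. Itgam, which encodes CD11b, averaged 428 ± 53.0 with RANKL and 906 ± 135 with M-CSF alone. Cells that also carry Cd200 include endothelial, B and T cells. None of the 6 endothelial or stromal markers was detected in either culture, nor were any of 6 dendritic cell or 5 mast cell and basophil markers. Of the 5 B cell markers only Cd79b was detected, at 205 with RANKL and 286 with M-CSF alone. Of the 5 T cell markers only Cd28 was detected, at 219 with RANKL and 294 with M-CSF alone, while Cd3e was not. Cd79b and Cd28 were both called lower with RANKL (adjusted p = 0.00102 and 0.0055, limma). All 4 granulocyte markers on the array were detected in both cultures, with summed signals of 9828 with RANKL and 13313 with M-CSF alone, and 2 of them fell. Of 5 erythroid markers, only Hbb-b1 was listed as detected, in both cultures, and it did not pass. It read 168 ± 7.01 with RANKL and 165 ± 11.5 with M-CSF alone, both below the floors. The part of granulocytes in these results was not tested, nor was the part of other cells in the rise of Cd200.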

How the data were processed

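The authors deposited, per the file headers and the labels, a normalized intensity per array gene as the mean of 3 arrays per culture, its SD, a detection p-value, and a ratio of the means, which was not used here. How they were normalized, on which array version and with which software is not given in the sources. In all 31492 array genes the value table of the series repeats these means. Symbols came from the RefSeq table of GRCm38.p6 (13430 names matched a symbol, 8112 a single synonym). Where several array genes share a symbol, the brightest stood for it in the lists, whereas Cd47 was read from the entry of that name.

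The log2 ratio of means was tested with the SDs carried to the log2 scale (delta method), pooled on 4 degrees of freedom and moderated with an intensity trend (squeezeVar, limma 3.58.1, R 4.3.3, prior degrees of freedom 7.49). Two-sided p-values were adjusted by the Benjamini-Hochberg method across 11012 genes with a detection p under 0.01 in a culture. On simulated data of that comparison with 11012 genes, 50 genes were changed at each size. Calls were made for 8 of those changed 1.25-fold, for 35 at 1.5-fold, for 48 at 2-fold and for 50 at 4-fold, beside 7 false calls. Only these few genes were changed, whereas 57.8% of tested genes passed in the data. The adjustment was therefore stricter in the simulation, and neither its recovery nor its false calls carry over to the reported calls.

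For 24646 genes with RANKL and 24749 with M-CSF alone the detection p is a multiple of 1 in 936 (relative tolerance 1e-06), and the floors come from these genes. The members and lists were chosen with earlier results of these data known. List genes were named if called at 2-fold or more, with up to 2 that did not pass. Others were named for their pairing with a member after their values were seen: Mst1, Rasa1, Dok1, Ptpn6, Ptpn11, Has1 to Has3, Spp1, Ezr, Msn, Adam10, Spi1, Prdm1, Tal1, Cd63, Syna, Synb and Cd200r2 to Cd200r4. Values of Tyrobp were also given after they were seen, for its pairing with Trem2. Itgb3, Atp6v0d2, Adam12, Cd36, Tnfrsf11a and Mitf were likewise named after their values were seen.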

Additional observations from a re-analysis of the deposited data

How the results depend on the processing

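The 6 calls among the 7 tested members kept their direction and passed under no filter on detection, detection p under 0.05, a mean signal of at least 200, no intensity trend, no moderation, unpooled variances on linear means, subtraction of background and recentring on the median log2 fold, and Cd47 passed under none of them. With both SDs doubled, 5 members passed, and Cd44 did not (log2 fold 0.41, adjusted p = 0.165 in limma). With no filter on detection 7 of 8 members passed, since Cd200r1 was then tested and passed, at a log2 difference of -0.32 between 2 signals below the floors (adjusted p = 0.0158, limma). Counts over all tested genes were 6369 in the reported test, 3054 with both SDs doubled and 3868 with unpooled variances. Among list genes named above, the calls of Rasa1, Ptpn6, Msn, Tyrobp, Tnfrsf11a and Itgb3 were lost with both SDs doubled. With unpooled variances those of Rasa1, Msn, Ezr, Ccr2, Tyrobp, Tnfrsf11a, Mitf and Itgb3 were lost, and without moderation that of Rasa1. The called entry of Cd47 under an older name was lost with both SDs doubled. Counts of called genes in the 3 lists stayed within 1.5 times of the reported counts under every alternative run. After subtraction of background the log2 folds of Ocstamp, Mst1r and Cd200 were 7.99, 9.27 and 7.92, values set by the minimum signal of 10 that was imposed. With the lowest signal of any detected gene as the floor, the lower bounds were 16.4-fold for Ocstamp, 38.6-fold for Mst1r and 15.7-fold for Cd200. Leaving out replicates was not run, because the values used are means and SDs of all 3. No paired analysis was possible because the values used carry no single arrays and no matching of replicates. Background limits what can be said of Cd200r1, Mst1 and other genes near a signal of 145.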
